A study of Mus musculus with 24 samples.

Results

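Forebrain RNA of control mice was compared between day 150 and day 70 of age, a span of young adult life, in 8 of the 24 arrays of the series. The controls were littermates without the transgene, 4 at each age and 1 array per mouse, and were chosen by their labels alone. The other arrays held controls at day 80 and TgCRND8 mice, which carry an APPSwe/Ind transgene, a mutant form of the human amyloid precursor protein, at days 70, 80 and 150, also 4 per group. The olfactory bulb and the cerebellum with the brainstem had been cut away from the frozen brains before extraction. The labels used here give neither strain nor sex. Values are log2 signals as deposited, so a difference of 1 is a doubling, and a gene is represented by its brightest probe set. The question was which genes differ between these ages where no amyloid transgene is present.

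Oligodendrocytes wrap axons in myelin, a stack of membrane rich in cholesterol and in galactosylceramide, a sugar-bearing sphingolipid. They arise from precursor cells that persist in the adult brain, pass through a short premyelinating stage, and in the rodent forebrain add myelin well into adult life. Newly formed oligodendrocytes make large amounts of membrane lipid and protein, whereas cells with finished sheaths maintain them. In whole tissue, fewer cells of a type and less RNA per cell cannot be told apart.

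The tissue label fits the signal of Camk2a, a kinase of forebrain excitatory neurons, which read 10.64 to 10.92 on the 8 arrays. Gad1, which makes GABA and is not limited to the forebrain, read 10.12 to 10.56. The arrays did not all look alike. The day 70 array 4 was the only one of the 8 with a low signal of Xist, the RNA that silences an X chromosome in females, at 3.26 against 9.61 to 9.85. The day 150 array 4 read 6.27 for Pcp2, a gene of cerebellar Purkinje cells, and 4.58 for Gabra6, a receptor subunit of cerebellar granule cells. The other arrays read 3.89 to 4.17 for Pcp2 and 2.76 to 3.12 for Gabra6. The day 70 array 3 read 3.79 for Tph2, the serotonin-making enzyme of the brainstem, against at most 2.80 elsewhere. For the lists refitted without these arrays, results that moved by over 1.5 times are given with and without them. The immediate early, thalamus, SREBP pathway, astrocyte and microglia lists were not refitted. Nor was the list of cerebellum, brainstem and olfactory bulb genes.

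Of 18193 genes tested, 4 fell from day 70 to day 150 and 0 rose at a Benjamini-Hochberg adjusted p under 0.05 (limma), which is 0.022% of genes called lower. At an unadjusted p under 0.05, 802 genes (4.41%) were lower and 652 (3.58%) were higher, and their total of 1454 became 879 without the day 70 array 4 and 2239 without the 2 arrays with cerebellar or brainstem signal. All 4 that passed are oligodendrocyte genes: Ugt8a, Mal, Mog and Tspan2. The 250 bases before their RefSeq start sites (GRCm38.p6) are shown because these genes fell together, with that of Hmgcs1, a cholesterol gene described further on. Capitals mark matches, on either strand, to the Myrf or Olig motifs in the 4 genes and to the sterol motif in Hmgcs1.
Ugt8a, chr3:125938653-125938902, minus strand: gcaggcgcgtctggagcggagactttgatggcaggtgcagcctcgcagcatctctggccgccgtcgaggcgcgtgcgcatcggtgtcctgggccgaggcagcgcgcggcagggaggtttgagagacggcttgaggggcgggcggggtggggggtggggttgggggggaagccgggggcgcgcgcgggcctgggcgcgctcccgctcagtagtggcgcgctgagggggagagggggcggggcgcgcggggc
Mal, chr2:127656696-127656945, minus strand: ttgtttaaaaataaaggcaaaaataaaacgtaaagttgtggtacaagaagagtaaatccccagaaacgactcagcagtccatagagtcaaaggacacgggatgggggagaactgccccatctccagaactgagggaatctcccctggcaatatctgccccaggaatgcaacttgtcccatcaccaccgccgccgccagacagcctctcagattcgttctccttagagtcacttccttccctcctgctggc
Mog, chr17:37023399-37023648, minus strand: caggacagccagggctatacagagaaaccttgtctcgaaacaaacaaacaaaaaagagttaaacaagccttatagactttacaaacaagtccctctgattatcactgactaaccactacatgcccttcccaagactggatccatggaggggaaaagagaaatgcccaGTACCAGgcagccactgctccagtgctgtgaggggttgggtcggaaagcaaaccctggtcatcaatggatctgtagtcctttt
Tspan2, chr3:102734520-102734769, plus strand: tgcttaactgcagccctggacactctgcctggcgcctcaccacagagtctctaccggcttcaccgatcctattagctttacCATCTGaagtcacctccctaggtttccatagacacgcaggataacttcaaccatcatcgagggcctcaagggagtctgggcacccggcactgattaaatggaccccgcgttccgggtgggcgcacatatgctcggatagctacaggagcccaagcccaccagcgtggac
Hmgcs1, chr13:119690101-119690350, plus strand: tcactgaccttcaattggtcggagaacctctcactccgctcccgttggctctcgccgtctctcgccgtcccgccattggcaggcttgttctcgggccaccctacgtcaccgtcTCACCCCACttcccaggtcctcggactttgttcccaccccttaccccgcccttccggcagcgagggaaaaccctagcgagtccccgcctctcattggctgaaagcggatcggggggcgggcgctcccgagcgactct
The table holds 2 start sites for Tspan2, and the upstream one is shown. The bases G and C make up 76.8% of the Ugt8a window and 46.8% of that of Mog, against a median of 52.4% over 32851 windows of the same length.

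The motifs of Myrf, Olig and SOX factors were searched for in the 4 genes, and the sterol motif in genes of cholesterol synthesis. CTGGCAC or CTGGTAC, the core bound by Myrf, a master factor of myelination, lies in 5.93% of all windows and among the 4 genes in that of Mog, 83 bases before the start and on the opposite strand. CAGATG, bound by Olig factors, lies in 14.4% of windows and among the 4 genes in that of Tspan2, 169 bases before the start, on the opposite strand. ACAAAG or ACAATG, bound by SOX factors, lies in 25.2% of windows and in none of the 4. TCACNCCAC, a sterol response element bound by SREBP factors, lies in 1.05% of windows and in that of Hmgcs1, 137 bases before the start. It is not in the windows of Sc5d, Mvk, Dhcr7, Cyp51 or Idi1, which were also searched. A match is a description of letters, not evidence of binding.

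Ugt8a encodes the enzyme that adds galactose to ceramide to make galactosylceramide. Its day 70 arrays read 8.64, 8.61, 8.68 and 8.94, and its day 150 arrays 8.18, 8.16, 8.26 and 8.11. Every day 150 mouse was below every day 70 mouse. Ugt8a fell by 0.54 (SE 0.085, n = 4 per age, adjusted p = 0.0165, limma), leaving 68.8% of the day 70 signal (95% interval 60.9% to 77.7%). A second, dimmer probe set of Ugt8a gave -0.54 as well.

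Mal encodes a proteolipid of compact myelin that takes part in sorting membrane. It read 9.46, 9.37, 9.43 and 9.39 at day 70 and 9.0, 8.95, 8.88 and 8.83 at day 150, again without overlap. Mal fell by 0.49 (SE 0.080, adjusted p = 0.0165, limma), to 71% of the day 70 signal (63.4% to 79.7%). Its second probe set gave -0.33.

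Mog encodes a surface protein of the outermost myelin layer and had the largest fall of the 4. It read 7.04, 7.16, 7.42 and 7.12 at day 70 and 6.57, 6.31, 6.57 and 6.50 at day 150. The groups did not overlap. Mog fell by 0.70 (SE 0.125, adjusted p = 0.0409, limma), to 61.7% of the day 70 signal (51.7% to 73.7%).

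Tspan2 encodes a tetraspanin of the oligodendrocyte membrane. It read 9.24, 9.22, 9.13 and 9.23 at day 70, and 8.94, 8.78, 8.70 and 8.76 at day 150. It too separated the ages completely. Tspan2 fell by 0.41 (SE 0.074, adjusted p = 0.0409, limma), to 75.2% of the day 70 signal (67.6% to 83.6%). Its 2 other probe sets gave -0.33 and -0.38.

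The falls kept their direction when any of the 8 arrays was left out, but the adjusted p did not always pass. Over 8 such fits Ugt8a passed in 5, Mal in 2, Tspan2 in 1 and Mog in 0, with differences of -0.57 to -0.47 for Ugt8a and -0.74 to -0.62 for Mog. No gene at all passed without the day 70 array 4, without the day 150 array 2, or without the day 150 array 4. No gene passed when the 2 arrays with cerebellar or brainstem signal were both left out, where Ugt8a was at -0.53 and Mog at -0.62, or when the arrays of the other groups were dropped from the estimate of the spread.

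The next genes by p were also lower but did not pass. Pbx3, a homeodomain factor, was at -0.48 (adjusted p = 0.0679, limma), with 6.63, 6.41, 6.62 and 6.77 at day 70 and 6.21, 6.02, 5.96 and 6.30 at day 150. Its second probe set, of similar brightness, gave -0.08, so the probe sets of Pbx3 disagree. Dnajc14, a J-domain chaperone of the endoplasmic reticulum chosen after its values were seen, was at -0.43 (adjusted p = 0.0767, limma), and its 2 other probe sets gave -0.41 and -0.40.

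**Figure D1:**
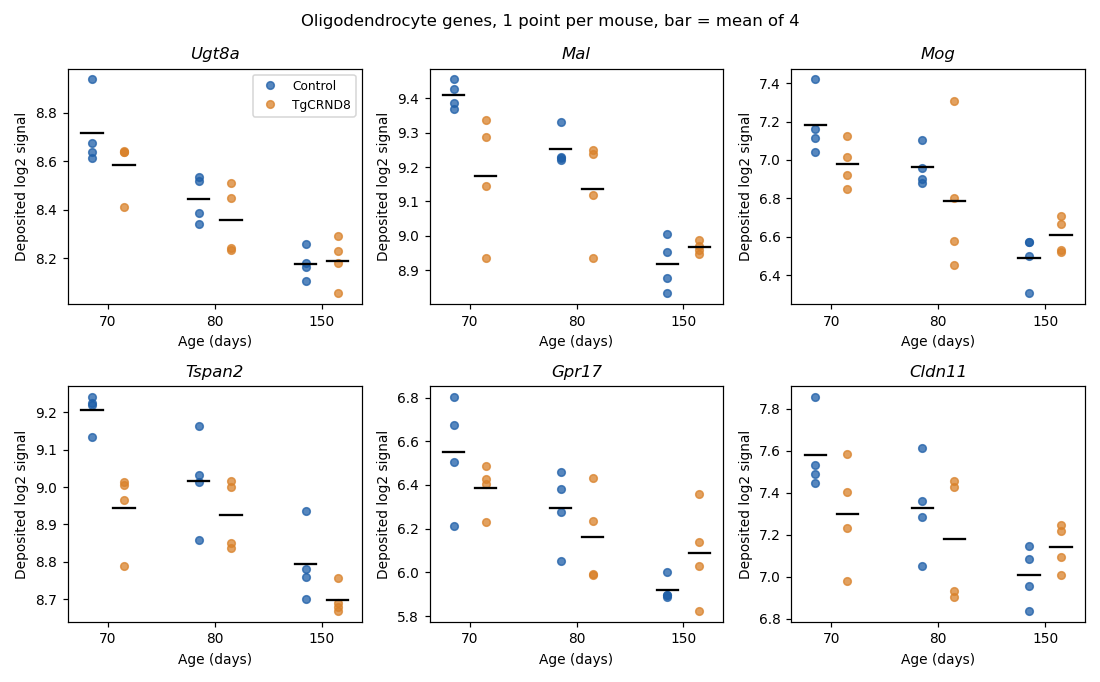
Deposited log2 signal (vertical axis) of Ugt8a, Mal, Mog, Tspan2, Gpr17 and Cldn11 by age in days (horizontal axis), with 1 point per mouse, blue for controls and orange for TgCRND8, and a bar at the mean of 4. In all 6 panels every day 150 control lies below every day 70 control, and the vertical axes do not start at 0.

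Controls at day 80 lay between the other ages for all 4 genes. Mean signals at days 70, 80 and 150 were 8.72, 8.45 and 8.18 for Ugt8a, and 9.41, 9.25 and 8.92 for Mal. They were 7.18, 6.96 and 6.49 for Mog, and 9.21, 9.02 and 8.79 for Tspan2. Neither step passed for any of them: from day 70 to day 80 the differences were -0.27, -0.16, -0.22 and -0.19 for Ugt8a, Mal, Mog and Tspan2, and from day 80 to day 150 they were -0.27, -0.34, -0.47 and -0.22. These steps share control arrays with the main comparison. Over all genes 0 passed in either step, with 590 and 620 at an unadjusted p under 0.05 (limma).

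Most other genes of oligodendrocytes and myelin were lower too, and none of them passed. Of the 38 measured genes of the oligodendrocyte and myelin list, 34 were lower at day 150 and the median difference was -0.19, against -0.0034 over all genes. At an unadjusted p under 0.05, 14 were lower and 0 higher, against 4.41% and 3.58% of all genes. The 14 include the 4 genes that passed. In 11, again with those 4, the ages did not overlap with day 150 lower, a pattern seen in 2.53% of all genes, and in 0 with day 150 higher, which 2.04% of all genes showed. Without the 2 arrays with cerebellar or brainstem signal 29 of the 38 were lower with a median of -0.10 and 13 at that p, and with probe sets averaged per gene the median was -0.12.

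Cldn11, the claudin that seals the layers of myelin, read 7.45, 7.49, 7.53 and 7.86 at day 70 and 7.08, 6.84, 6.96 and 7.15 at day 150, without overlap. Its difference of -0.57 (SE 0.138) had an adjusted p of 0.267 (limma). Mobp, a basic protein of compact myelin, had a difference of -0.30 (adjusted p = 0.473, limma), also without overlap. Cnp, an enzyme of uncompacted myelin, was at -0.25 and Mag, the adhesion molecule facing the axon, at -0.25, and both overlapped between ages. Mbp, the major cytoplasmic protein of compact myelin, read 12.91, 12.95, 12.93 and 12.85 at day 70 and 12.87, 12.84, 12.78 and 12.75 at day 150. Its difference was -0.10 with overlap.

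Among myelin lipid enzymes, Fa2h, which hydroxylates the fatty acids of galactosylceramide, was at -0.28 without overlap. Gal3st1, which adds sulfate to make sulfatide, was at -0.21, and Cers2, which makes the ceramides with very long chains, at -0.29. Elovl6, an elongase of fatty acids, was at -0.26 without overlap and Acss2, which makes acetyl-CoA, at -0.22. Degs2, a ceramide-modifying enzyme, was at +0.24. Of the 29 measured genes of myelin lipid and fatty acid synthesis, 23 were lower with a median of -0.10, and Ugt8a alone passed.

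The transcription factors of the lineage were not uniformly lower. Olig2 was at -0.29 and Olig1 at -0.20, while Sox10 was at +0.11 and Myrf at +0.05. Myrf went to -0.12 without the day 70 array 3, which had its lowest reading, 7.16 against 7.71 to 7.90 on the other day 70 arrays. Opalin, a membrane protein of mature oligodendrocytes, was at -0.03 and Ermn, a cytoskeletal protein of late stages, at -0.03. Bcas1, which marks oligodendrocytes early in myelination, was at -0.19. Grb14, an adaptor of the insulin receptor, was at -0.29 and Josd2, a deubiquitinase, at -0.39, both without overlap but not passing.

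**Figure D2:**
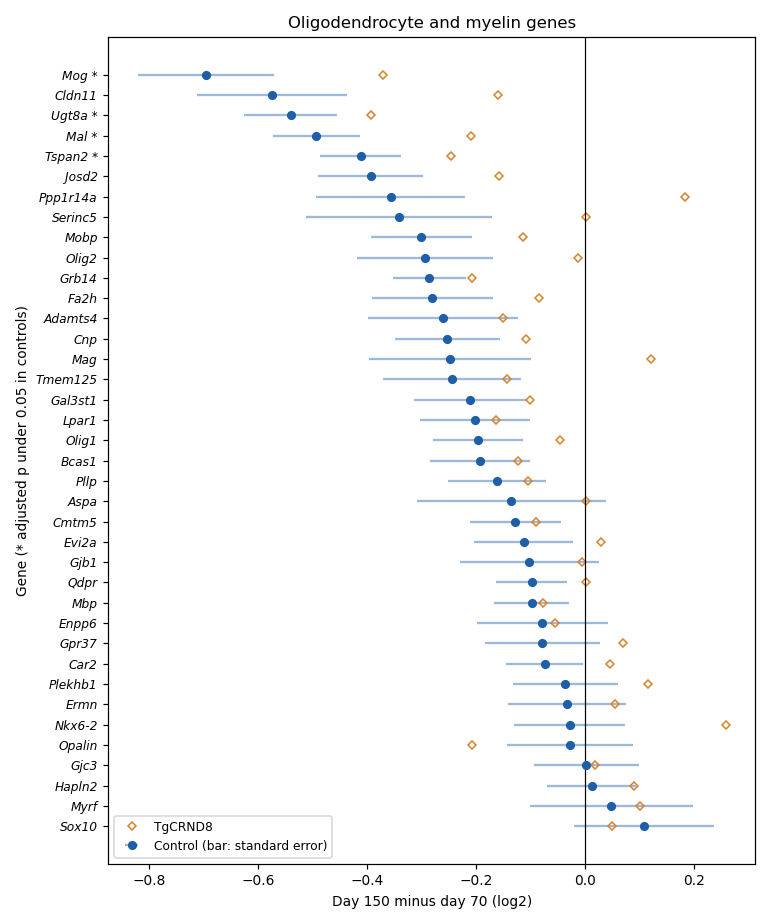
Difference between day 150 and day 70 in log2 (horizontal axis) for the 38 measured oligodendrocyte and myelin genes (vertical axis), with filled circles and standard error bars for controls and open diamonds for TgCRND8. The 4 starred genes passed in controls, 34 circles lie left of 0, and 23 of the diamonds do.

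The precursor list held 16 measured genes, of which 13 were lower, with a median of -0.11 and 5 at an unadjusted p under 0.05, against 4.41% of all genes. All 5 separated the ages, against 2.53% of all genes: Gpr17, Sox6, Sox4, Olig2 and Rlbp1. Gpr17, a receptor of precursors that have committed to differentiate, read 6.80, 6.68, 6.21 and 6.51 at day 70 and 5.90, 5.90, 5.89 and 6.0 at day 150. The day 150 readings sat within a narrow band below all of day 70. Its difference was -0.63 (SE 0.122, adjusted p = 0.0721, limma). Sox6, a factor of precursors and of some interneurons, was at -0.30 (adjusted p = 0.2, limma). Genes that define resting precursors had smaller differences with overlap: Pdgfra, the receptor for platelet-derived growth factor, was at -0.16 and Cspg4, the NG2 proteoglycan, at +0.08.

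Genes of newborn neurons and proliferation were lower in 27 of 35, with a median of -0.09, 11 at an unadjusted p under 0.05 and 4 without overlap (4.41% and 2.53% of all genes), and none passed. The median was -0.15 without the day 70 array 1. The count of 11 became 5 without the day 70 array 4, 6 without the day 70 array 1 and 7 without the day 150 array 2. Sox11, a factor of immature neurons, read 7.09, 7.14, 7.25 and 7.29 at day 70 and 6.87, 6.81, 6.80 and 6.91 at day 150, a difference of -0.35. Sox4, its close relative, also in the precursor list, was at -0.30. Tubb2b, a tubulin of growing neurites, was at -0.37, Cd24a, a surface protein of neuroblasts, at -0.57, and Dlx1, a factor of young interneurons, at -0.23. Dcx, the microtubule protein that defines migrating neuroblasts, was at -0.08 with overlap. 4 of the 35 were below the lower quartile of signal on all 8 arrays.

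Cholesterol synthesis genes were lower in 17 of 18, with a median of -0.20, 8 at an unadjusted p under 0.05 and 3 without overlap (4.41% and 2.53% of all genes), and none passed. Sc5d, an enzyme of the last steps, read 7.32, 7.18, 7.24 and 7.29 at day 70 and 7.01, 6.84, 6.95 and 7.15 at day 150, a difference of -0.27. Another Sc5d probe set of similar brightness gave -0.03 and a dimmer one -0.26, so the probe sets of Sc5d disagree. Mvk, the mevalonate kinase, was at -0.27 and Fdps, which makes farnesyl diphosphate, at -0.21, both without overlap. A second, dimmer probe set of Mvk gave -0.04. Dhcr7 was at -0.31, Cyp51 at -0.27, Ebp at -0.26, Idi1 at -0.25 and Hmgcs1, an early step of the pathway, at -0.22, with overlap in each. Sqle, the squalene epoxidase, was at -0.15. Without the day 70 array 4 the list's median was -0.15 with 4 at an unadjusted p under 0.05, and without the day 150 array 2 it was -0.17 with 5. With probe sets averaged per gene it was -0.14 with 3.

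Regulators of the sterol pathway were less uniform. In the list of SREBP pathway and sterol transport genes 10 of 20 were lower, with a median of 0.0019. Insig1, a sterol-sensing anchor, was at -0.31 and Stard4, a carrier of cholesterol, at -0.21, both without overlap. Srebf2, which encodes the factor that drives the pathway, was at +0.11. From day 70 to day 80 the cholesterol list's median was -0.01, and from day 80 to day 150 it was -0.16. Other lists were already lower at day 80. The same steps gave -0.09 and -0.08 for the myelin list, and -0.10 and -0.05 for the precursor list. They gave -0.05 and -0.06 for newborn neuron genes, and -0.08 and -0.04 for chaperones of the endoplasmic reticulum.

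Of all the gene lists examined, 4 had means that did not overlap between ages. The other lists, which covered neurons, astrocytes, microglia, vessels and further gene classes, all overlapped. Relative to the day 70 average, the mean of the myelin list ran from -0.041 to 0.044 at day 70 and from -0.285 to -0.157 at day 150. The precursor list ran from -0.072 to 0.088 and from -0.154 to -0.135. The newborn neuron list ran from -0.064 to 0.055 and from -0.14 to -0.095, and the cholesterol list from -0.04 to 0.087 and from -0.226 to -0.143. These lists were chosen with the data known, so the separations carry no test.

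**Figure D3:**
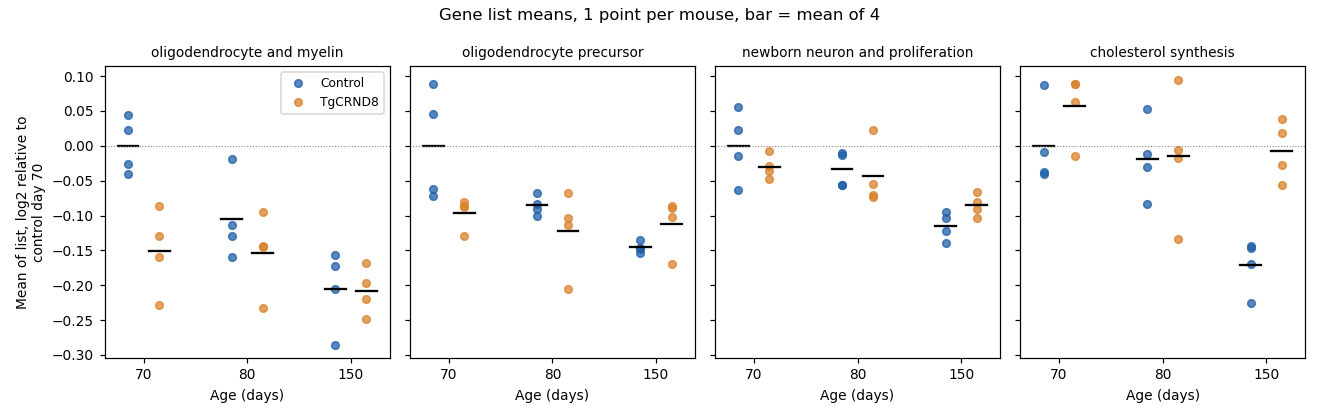
Mean log2 signal of 4 gene lists relative to the control day 70 average (vertical axis) by age in days (horizontal axis), with 1 point per mouse, blue for controls and orange for TgCRND8, and a bar at the mean of 4. In each panel every day 150 control lies below every day 70 control, while the TgCRND8 mice of days 70 and 150 overlap in the myelin, precursor and cholesterol panels.

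Bright genes in general read lower at day 150 and dim genes higher, which sets the background for these lists. The arrays varied within each age. Their upper quartiles of signal over all probe sets were 6.39, 6.40, 6.35 and 6.44 at day 70. At day 150 the upper quartiles were 6.35, 6.33, 6.34 and 6.40, overlapping those of day 70. Of 5 equal classes of all genes by mean signal, the brightest had 70.2% lower with a median of -0.044, and the next 68.6% with a median of -0.051. In the dimmest class 32.3% were lower with a median of 0.044. At an unadjusted p under 0.05, 5.96% of the brightest class and 8.11% of the next were lower, but 0.714% of the dimmest. The 2 brightest classes held 26 of the 38 myelin genes, 16 of the 18 cholesterol genes and 14 of the 35 newborn neuron genes. After quantile normalization, which makes the spread of signals equal on every array, the medians of the classes lay between 0.00046 and 0.0074. The myelin list was then lower in 32 of 38 with a median of -0.15 and 12 at an unadjusted p under 0.05, and Ugt8a and Mal still passed. The cholesterol list had a median of -0.16 with 5 at that p, and the newborn neuron list -0.09.

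**Figure D4:**
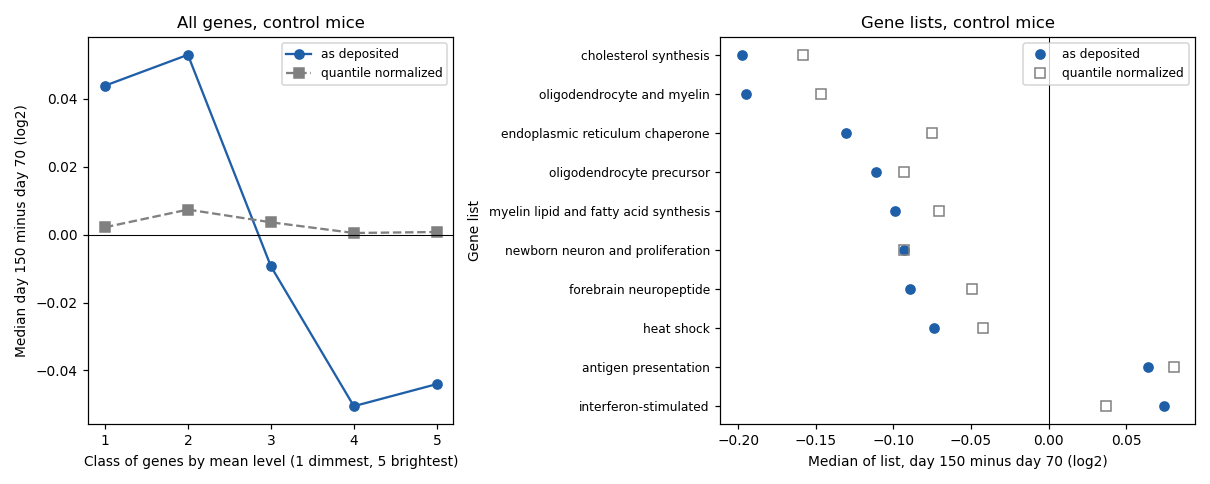
Left, the median day 150 minus day 70 difference in log2 of all genes in controls (vertical axis) by class of mean signal (horizontal axis, 1 dimmest to 5 brightest), as deposited (circles) and after quantile normalization (squares). Right, the median of 10 gene lists on both scales, where the cholesterol and myelin lists lie farthest below 0 on either.

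Chaperones of the endoplasmic reticulum were lower in 24 of 26 with a median of -0.13. At an unadjusted p under 0.05, 4 were lower, against 4.41% of all genes: Hspa13, Pdia3, Dnajb11 and Creld2. Hspa5, the main chaperone of this compartment, was at -0.21 with overlap. 21 of the 26 are in the 2 brightest classes, of which 5.96% and 8.11% were lower at that unadjusted p. After quantile normalization the list's median was -0.08. The count of 4 became 0 without the day 70 array 4, 0 without the day 150 array 1, 2 without the day 150 array 3 and 7 without the day 150 array 4. Cytosolic heat shock genes were lower in 14 of 20, with a median of -0.07, which became -0.03 without the day 70 array 4, -0.04 without the day 150 array 2 and -0.12 without the day 150 array 4. It was -0.13 without the 2 arrays with cerebellar or brainstem signal and -0.04 after quantile normalization. Hspa8, the constitutive cytosolic chaperone, was at -0.06. Cryab, a small heat shock protein that oligodendrocytes also make, was at -0.43 (adjusted p = 0.2, limma) without overlap, with 8.06, 8.05, 8.13 and 8.39 at day 70 and 7.78, 7.65, 7.79 and 7.70 at day 150.

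Neuropeptide genes of the forebrain were lower in 18 of 23 with a median of -0.09, which became -0.14 without the 2 arrays with cerebellar or brainstem signal and -0.05 after quantile normalization. Adcyap1, which encodes PACAP, was at -0.35, Crh, the corticotropin-releasing hormone, at -0.44, Nts, neurotensin, at -0.48, and Penk, proenkephalin, at -0.25. None passed. At an unadjusted p under 0.05, 4 were lower, against 4.41% of all genes. This count went to 0 without the day 70 array 4 and to 1 without the day 150 array 2. Thalamus genes were lower in 14 of 16 with a median of -0.08. The list of cerebellum, brainstem and olfactory bulb genes, tissue cut away before extraction, was lower in 8 of 25, with list means of -0.087 to 0.148 at day 70 and -0.03 to 0.244 at day 150. The part that differences in dissection had in the other results was not tested.

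Astrocyte and microglia lists had medians close to 0. Resting astrocyte genes were lower in 15 of 22 with a median of -0.02, although 20 of the 22 lie in the 2 brightest classes. Within the list, Slco1c1, a thyroid hormone carrier, was at -0.31, Mlc1, a membrane protein of astrocyte endfeet, at -0.23 and Aqp4, the water channel of endfeet, at -0.22, none passing. Gfap, the intermediate filament of reactive astrocytes, read 6.89, 7.19, 7.58 and 7.68 at day 70 and 6.94, 7.13, 7.31 and 7.20 at day 150, a difference of -0.19. Of the microglial genes, Cx3cr1, the fractalkine receptor, was at -0.0073 and Csf1r, the receptor on which microglia depend, at -0.026, and each changed sign under some settings.

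No gene rose past the threshold. Of the genes that were higher at day 150, the 5 of smallest p were Zkscan16, a zinc finger gene, at +0.30 (adjusted p = 0.2, limma), Abca8a, a lipid transporter, at +0.46 (0.214), Pot1b, which protects telomeres, at +0.30 (0.401), 1810044D09Rik at +0.52 (0.408) and Oprm1, the mu opioid receptor, at +0.38 (0.442). The other, dimmer probe set of 1810044D09Rik gave -0.03, and those of Oprm1 gave +0.16, +0.16 and +0.08. Pot1b averaged 3.40 at day 70 and 3.70 at day 150, and Oprm1 3.85 and 4.22. Both genes are in the dim class from 3.35 to 4.52, where 6.38% were higher at an unadjusted p under 0.05 (limma). Abca8a read 4.89, 4.91, 4.57 and 5.02 at day 70 and 5.30, 5.38, 5.14 and 5.39 at day 150, without overlap. Col6a1, a chain of collagen VI, was at +0.52 without overlap and its partner chain Col6a2 at +0.24, a pair chosen after its values were seen. Col1a1 and Col3a1, fibrillar collagens, were at -0.16 and -0.21, and Ttr, the transthyretin of the choroid plexus, at +0.24, with overlap in each.

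Neuronal immediate early genes, which are induced by activity, were higher in 20 of 33 with a median of 0.09. At an unadjusted p under 0.05, 4 were higher, against 3.58% of all genes, and 0 lower. The list was not refitted with arrays left out. Fos read 7.38, 8.34, 8.15 and 7.47 at day 70 and 8.34, 8.27, 8.37 and 8.54 at day 150. The day 70 mice split, with arrays 1 and 4 low and arrays 2 and 3 within or near the range of day 150. Btg2 showed the same arrays low, at 6.92 and 6.76 against 7.70 and 7.58, and its difference was +0.50 with overlap. Nr4a1 was at +0.35, Gadd45g at +0.27 and Arc at +0.32. Interferon-stimulated genes were higher in 21 of 27 with a median of 0.07 and antigen presentation genes in 15 of 18 with a median of 0.06, and 3 and 5 of these members lie in the 2 brightest classes. The interferon median was 0.04 after quantile normalization, 0.10 without the dimmest 40% of genes and 0.11 without the day 150 array 4. The antigen presentation median was 0.08 after quantile normalization, 0.09 without the dimmest 40% of genes, 0.10 with the mean of all probe sets, 0.10 without the day 150 array 3 and 0.10 without the day 70 array 3. B2m, the light chain of class I molecules, was at +0.12.

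TgCRND8 mice of the same ages gave mean differences of the 4 genes that share no array with those of controls. The spread was estimated from all 24 arrays together, so the p-values of both genotypes are not independent. For Ugt8a the TgCRND8 arrays read 8.64, 8.64, 8.64 and 8.41 at day 70 and 8.18, 8.06, 8.23 and 8.29 at day 150. Ugt8a was again lower in every day 150 mouse, at -0.39, with an adjusted p of 0.0847 (limma). Mog at -0.37 and Tspan2 at -0.25 also separated the ages, a pattern found in 1.27% of all genes in these mice, while Mal at -0.21 did not. All 4 had an unadjusted p under 0.05, as 1.31% of all genes did with day 150 lower: 9.8e-05 for Ugt8a, 0.0028 for Tspan2, 0.0064 for Mog and 0.015 for Mal (limma).

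Across the myelin list, 23 of 38 genes were lower in TgCRND8, with a median of -0.07. At an unadjusted p under 0.05, 5 were lower and 1 higher, against 238 (1.31%) lower and 243 higher over all genes. The list mean of the TgCRND8 mice ran from -0.228 to -0.086 at day 70 and from -0.249 to -0.168 at day 150, on the scale where the control day 70 average is 0. Every TgCRND8 mouse at day 70 was thus below every control of that age. The test of whether the 2 age differences differ did not pass for Ugt8a, Mal, Mog or Tspan2, with unadjusted p of 0.24, 0.019, 0.076 and 0.13 (limma). It did not pass for Sox6 either, at -0.30 in controls and +0.09 in TgCRND8 with the smallest unadjusted p among these, 0.00027. Cholesterol genes were lower in 15 of 18 in TgCRND8 with a median of -0.06, and the list means of days 70 and 150 overlapped, at -0.014 to 0.089 and -0.056 to 0.038. Precursor genes were lower in 8 of 16 in TgCRND8, with a median of -0.006. Chaperones of the endoplasmic reticulum were lower in 10 of 26, with a median of 0.007. Newborn neuron genes were lower in 24 of 35 in TgCRND8 with a median of -0.03. The means of the newborn neuron list did not overlap, at -0.047 to -0.007 and -0.104 to -0.066. Sox4 was at -0.29 in these mice and Sox11 at -0.14.

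The age difference itself differed between genotypes for 2 of 18193 genes, Cst7 and Gfap. Cst7, cystatin F of plaque-associated microglia, was at -0.00047 in controls and rose by 1.52 in TgCRND8. It read 2.88 to 3.04 on the 8 control arrays, below the arrays' lower quartiles of 3.15 to 3.32, so these sizes start from signals near the bottom of the range. Gfap was at -0.19 in controls and rose by 1.13 in TgCRND8. Abca8a rose by 0.71 in TgCRND8 (adjusted p = 0.0021, limma), beside +0.46 in controls, and the test of the difference between them did not pass (unadjusted p = 0.11, limma). Across all 18193 genes the control and TgCRND8 age differences had a Pearson r of 0.0767, given as a description, since genes are not independent replicates.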

How the data were processed

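Total RNA of mouse forebrain was hybridised to Affymetrix arrays, 1 array per mouse, after oligo(dT) priming and biotin labelling, per the labels' protocols. The values are log2 signals in the table deposited by the authors. Their background correction, normalization and summary method are not given in the sources used here, so centring and scaling are unknown. Array medians were 4.28 to 4.38.

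The table held 45101 probe sets, 64 of them controls. In the platform annotation 34945 had 1 symbol, 932 several and 9160 none, and the brightest probe set per symbol over all 24 arrays gave 18193 genes. All 24 columns matched the labels and 0 were left over. One fit of 6 group means used limma 3.58.1 in R 4.3.3 (lmFit, eBayes, 18 residual degrees of freedom), with Benjamini-Hochberg adjustment over all genes. The median standard error of an age difference was 0.0977, and 4 mice per age limit the precision. The fit was tested on simulated data.

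The comparison, the gene lists and the genes named were chosen with earlier results of these data known, so lists are described by counts and medians without a test. Named genes were those that passed, the 5 of smallest p in a direction where fewer than 5 passed, and set genes and list members; others were chosen after their values were seen. Alternatives covered normalization, probe sets, filters, weights, blocks and arrays left out. Promoters came from RefSeq (10 of 10 genes looked up were matched). Some genes are not reported here.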

Additional observations from a re-analysis of the deposited data

Results flagged for a closer look

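Within each age the array farthest from the other 3 was tested with Dixon's ratio, the gap to its neighbour over the whole range, against 0.829. Of 188 groups of 4 tested, 8 exceeded it, where chance flags about 1 in 20. Gpr17 read 6.0 on the day 150 array 4 against 5.89 to 5.90 (ratio 0.896), and Grb14 on the same array 6.98 against 6.86 to 6.87 (0.914). Pcp2 on that array read 6.27 against 3.91 to 4.17 (0.891). Grb14 on the day 70 array 1 read 7.23 against 7.15 to 7.16 (0.89). The day 70 array 3 stood apart for Cnp, at 11.37 against 11.60 to 11.65 (0.845), and for Bcas1, at 10.59 against 10.23 to 10.29 (0.844). The day 70 array 4 stood apart for Xist, at 3.26 against 9.61 to 9.79 (0.972), and for Insig1, at 6.18 against 5.73 to 5.80 (0.846).

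The age difference in TgCRND8 minus that in controls was 1.52 for Cst7 and 1.32 for Gfap, both past the threshold of the interaction test in limma.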

How the results depend on the processing

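The 4 falls were the same genes after median centring, with the mean of all probe sets, and with trend and robust settings, and were among 5 without the dimmest 40% of genes. The count was 2 after quantile normalization, 2 with all probe sets and 2 with an Xist covariate, 8 with array weights (7 lower, 1 higher), 7 at an adjusted p under 0.10 and 0 with only the arrays compared. In fits added after seeing the data it was 1 without the 5 arrays of low Xist in the series and 0 without the 2 arrays of high hindbrain genes. Leaving out 1 array gave 0 to 3. For the difference between genotypes, the count of 2 became 1 without the dimmest genes and 4 with all probe sets, and leaving out 1 array gave 2 to 3. For TgCRND8, the count of 16 became 9 without the dimmest genes, 9 with the mean of probe sets and 27 with array weights, and leaving out 1 array gave 8 to 14. From day 80 to day 150 the count of 0 became 1 with array weights, 1 at an adjusted p under 0.10 and 1 without the low Xist arrays, and leaving out 1 array gave 0 to 1. From day 70 to day 80 it was 0 in each alternative run. The cause of these differences was not tested.

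Deviations of same-numbered mice of the 2 ages had correlations of 0.281, 0.0601, 0.173 and 0.32, all positive. Those of differently numbered mice ran from -0.272 to 0.189, the highest being the day 70 array 3 with the day 150 array 2. The labels call the numbers biological replicates and state no pairing, so the main fit used no block. Whether same-numbered arrays were handled together is not stated and was not tested. With the replicate block, 7 genes passed, the 4 and also Pbx3 (adjusted p = 0.014), Gpr17 (0.0099) and Dnajc14 (0.013), from limma.

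Over 84 named genes and 20 settings (1676 values), 1595 kept direction and call, 39 lost the call, 11 gained it and 31 changed sign, none of the last past the threshold. Opalin went to 0.031 after quantile normalization, 0.0030 with the mean of probe sets and 0.034 without the hindbrain arrays, and ran from -0.061 to 0.013 as 1 array was left out. Myrf went to -0.053 without the hindbrain arrays and ran from -0.12 to 0.13 as 1 array was left out. With the mean of probe sets Dcx went to 0.0099 and Bcas1 to 0.069. Cx3cr1 went to 0.043 after quantile normalization, 0.0014 after centring and 0.028 without the hindbrain arrays, with -0.050 to 0.081 as 1 array was left out. Csf1r went to 0.010 after quantile normalization, 0.0036 with the Xist covariate and 0.046 without the low Xist arrays, with -0.15 to 0.046 as 1 array was left out. Hspa8 went to 0.0034 without the low Xist arrays, with -0.11 to 0.012 as 1 array was left out. Cst7 went to 0.0083 after centring, 0.020 without the low Xist arrays and 0.012 without the hindbrain arrays, with -0.029 to 0.020 as 1 array was left out.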
